A study of Mus musculus with 12 samples.

Results

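Axon guidance ligands and receptors were followed in RNA of primary mouse cultures that carried 1 mutated copy of *Myt1l* or none. The members were taken by gene symbol from the deposited count table: semaphorins of classes 3 to 7, neuropilins, plexins, ephrins, Eph receptors, Slits, Robo receptors, netrins, netrin-Gs, Dcc and the Unc5 receptors. In all, 71 of the 55397 genes of the table were members, and 67 of them were among the 18264 genes that passed the filter on low counts.

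The (+/−) group (HET in the labels) and the (+/+) group (WT) held 3 animals each, and RNA of each animal was sequenced as 2 libraries. The mutated allele was made by genome editing in zygotes and lacks 7 bp of *Myt1l* in its exon 6, which shifts the reading frame at amino acid 11 and ends it at a stop codon at amino acid 78. The labels give the samples as male C57BL/6J cortex at P0. The study's methods allow hippocampus or cortex as the source of its primary cultures and its list of sequenced samples names hippocampus, while its zygotes were C57BL6/N, so tissue and strain are not settled here. All cultures of both genotypes received 2 µM Ara-C, an inhibitor of cell division, at 3 days after plating, and astrocyte, oligodendrocyte and microglial markers were still present in every animal. Animals are named by their number: 505, 506 and 508 were (+/−) and 510, 511 and 513 were (+/+), and values are listed in that order throughout. Levels are given in CPM, a gene's counts per 1000000 counts of the scaled library, after summing the libraries within each animal.

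The summed libraries held 40642699 to 52833161 counts per animal. Since the labels do not say what separates both libraries of an animal, the animal was the unit of the tests. The exceptions are the alternative fits that took the 12 libraries as samples. *Myt1l* mRNA stood at 88.995, 146 and 165 CPM in (+/−) animals and at 119, 147 and 109 CPM in (+/+) animals, a log2 fold change of 0.09 ± 0.22 (SE), and the groups overlapped. A 7 bp deletion leaves the transcript countable, so that level does not check the genotype. All samples are labelled male, but the (+/+) animal 511 held 419 CPM of *Xist*, the RNA of the inactive X chromosome, against 0.123 to 0.220 CPM in the other 5 animals. The (+/−) animal 505 also stood apart. It was the (+/−) animal farthest from the (+/+) mean for 51 of the 67 tested members and for 63.2% of all genes tested. For the members whose CPM is given in every animal, the value without 505 follows where it moved by over 1.5 times.

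Axon guidance proteins steer growing axons by attraction or repulsion, and in older neurons many of them act on dendrites and synapses. Secreted class 3 semaphorins are bound by neuropilins, which signal through A-type plexins, while most membrane-bound semaphorins bind plexins directly. Ephrins are membrane-bound ligands of the Eph receptor tyrosine kinases, Slits are secreted ligands of the Robo receptors, and netrins act through Dcc in attraction and through Unc5 receptors in repulsion. MYT1L is a zinc finger transcription factor of neurons, described as a repressor of non-neuronal genes.

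No member was called in either direction by edgeR at an adjusted p under 0.1, where 0.0% of all genes tested were called, and the smallest adjusted p among members was 0.166. Among the 67 tested members, 44 had a negative log2 fold change, (+/−) over (+/+), and 23 a positive one. Negative values thus made up 65.7% of members and 49.6% of all genes tested, and positive values 34.3% and 50.4%. The median over members was −0.25, and the median over all genes tested was 0.00. At an unadjusted p under 0.05, 19 members (28.4%) lay lower in (+/−) cultures beside 9.11% of all genes tested, and 5 (7.46%; *Sema3b*, *Sema5b*, *Sema6d*, *Plxnb3* and *Ntn1*) lay higher beside 13.2% of all genes tested. In 23 members (34.3%) every (+/−) animal lay below every (+/+) animal, beside 13.5% of all genes tested, and in 3 members (4.48%) every (+/−) animal lay above, beside 15.5%. For a single gene such a split gives p = 0.1 in the exact two-sided permutation test, the smallest value 3 against 3 animals allow.

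With DESeq2 on the same 6 animals, 3 members were called higher (4.48%, beside 7.54% of all genes tested) and 16 lower (23.9%, beside 4.3%). The 3 higher ones were *Plxnb3*, *Sema5b* and *Sema6d*. The 16 lower ones were *Efna3*, *Efnb3*, *Epha8*, *Epha10*, *Nrp2*, *Ntng2*, *Plxna1*, *Plxna3*, *Plxnc1*, *Plxnd1*, *Robo3*, *Sema4a*, *Sema4g*, *Sema6b*, *Unc5a* and *Unc5d*. With genetic sex as a covariate, DESeq2 called 0 members higher (beside 1.23% of all genes tested) and 1 lower (beside 0.192%). The lower one was *Epha8*, with a DESeq2 adjusted p of 0.0987. Only the (+/+) animal 511 held over 100 CPM of *Xist*, so this covariate sets that single animal apart. The fit is thus close to leaving out 511 and cannot separate sex from that animal. In edgeR, *Sema3b* had a log2 fold change of 0.30 with the covariate and 0.30 without 511. limma voom called 0 members. Without the low-count filter, edgeR called 2 members higher (beside 3.16%) and 12 lower (beside 1.4%), all of them among the calls of DESeq2 on the 6 animals. Taking the 12 libraries as samples, which counts each animal more than once, gave 12 higher (beside 25.6%) and 32 lower (beside 23.3%), or 11 (beside 24.1%) and 31 (beside 21.5%) with the library number as a replicate block. The calls thus depended on the tool and the filter.

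Leaving out 505 brought the median over members to −0.15, and leaving out 511 brought it to −0.17. The count of members with a negative value remained at 43 or 44 whichever animal was left out. The count at an unadjusted p under 0.05 moved more: 19 members lay lower with all animals, 16 without 505, 10 without 510, 9 without 511, 26 without 508 and 21 without 513. Among all genes tested the shares in those 5 fits were 6.55%, 3.5%, 3.03%, 10.4% and 12.5%. On the higher side, the 5 members became 2 without 505, 1 without 510 or without 511, and 10 without 513, where the shares of all genes tested were 8.32%, 6.7%, 7.02% and 18.1%. The 10 members were 14.9% of those tested, under the share of all genes in that fit. When 513 was left out, edgeR called 4 members higher (12.3% of all genes tested) and 11 lower (5.95% of all genes tested). Of the 67 tested members, 59 kept the sign of their log2 fold change in all 6 fits without 1 animal, and the other 8 were *Sema3f*, *Sema5a*, *Sema6a*, *Efnb1*, *Epha2*, *Ephb1*, *Ephb6* and *Robo2*. Members whose groups do not overlap could hardly turn sign in such a fit. The share of all genes tested that kept their sign was not computed.

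**Figure D1:**
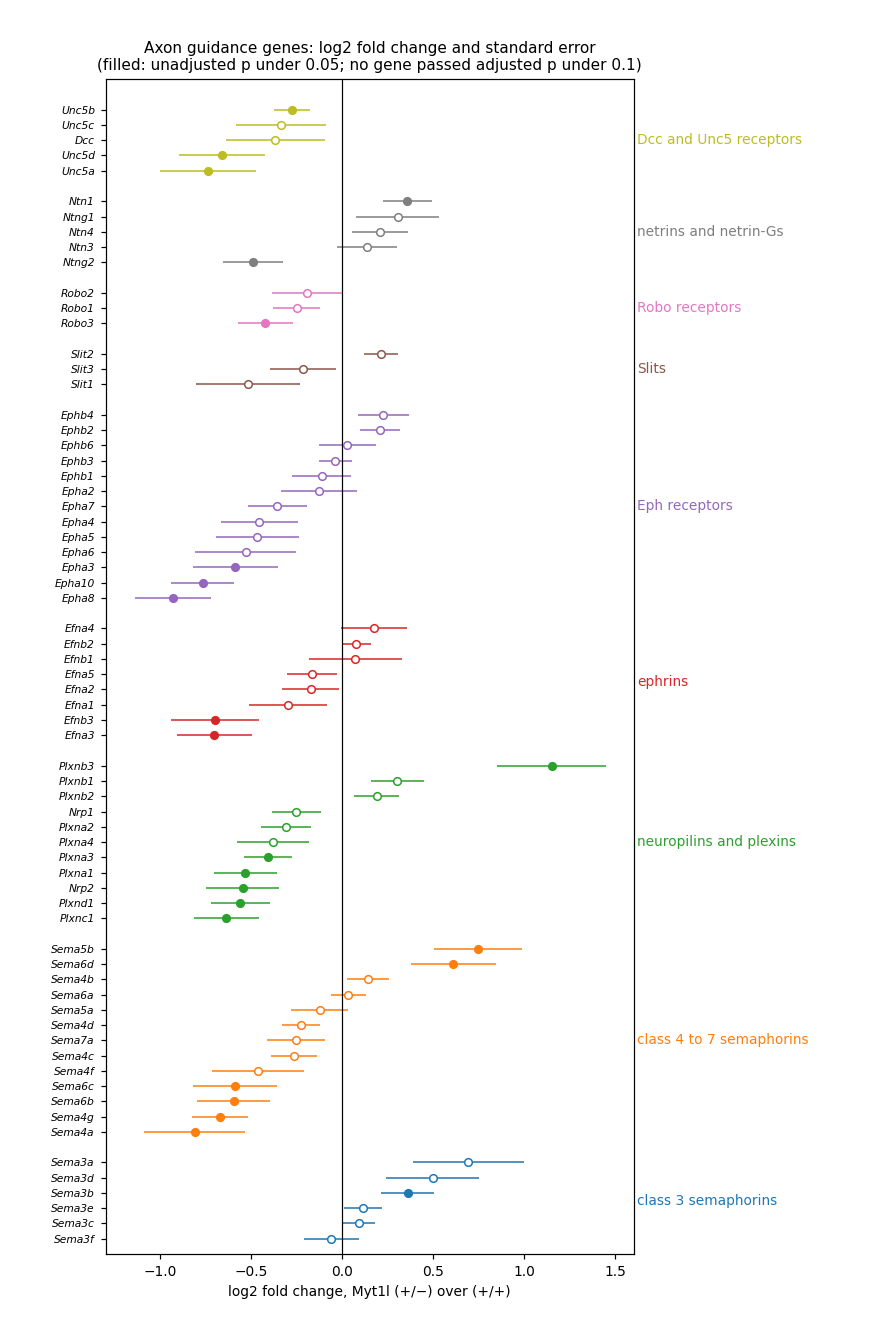
Log2 fold change, (+/−) over (+/+), of the 67 tested members by family, with bars of 1 standard error from edgeR (3 animals per genotype) and filled points at an unadjusted p under 0.05. *Epha8* at −0.93 and *Plxnb3* at 1.15 are the extremes, all 8 EphA receptors and all 5 Dcc and Unc5 receptors lie left of 0, and all 3 plexin B genes lie right of it.

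The members differed widely in level. Per kb of exon in the (+/+) cultures, the highest was *Plxnb2*, a receptor of class 4 semaphorins, at 63.4 ± 6.75 CPM per kb (SD, n = 3). *Sema7a*, a GPI-anchored semaphorin, followed at 57.6 ± 6.97 and *Efnb3*, a transmembrane ephrin, at 49.99 ± 10.3 CPM per kb. The ranges over the 3 (+/+) animals overlapped between each neighbouring pair of the 10 members with the highest levels, so their order is not resolved. After these came *Epha4* (35.3 CPM per kb), *Sema6b* (30.1), *Plxna1* (28.2), *Unc5a* (25.2), *Efna3* (24.3), *Sema3c* (22.1) and *Slit1* (21.3). The lowest tested member was *Plxnb3* at 0.309 CPM per kb. The filter removed 4 members: *Sema3g* with 31 counts summed over all animals, *Epha1* with 58, *Robo4* with 23 and *Ntn5* with 68.

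**Figure D2:**
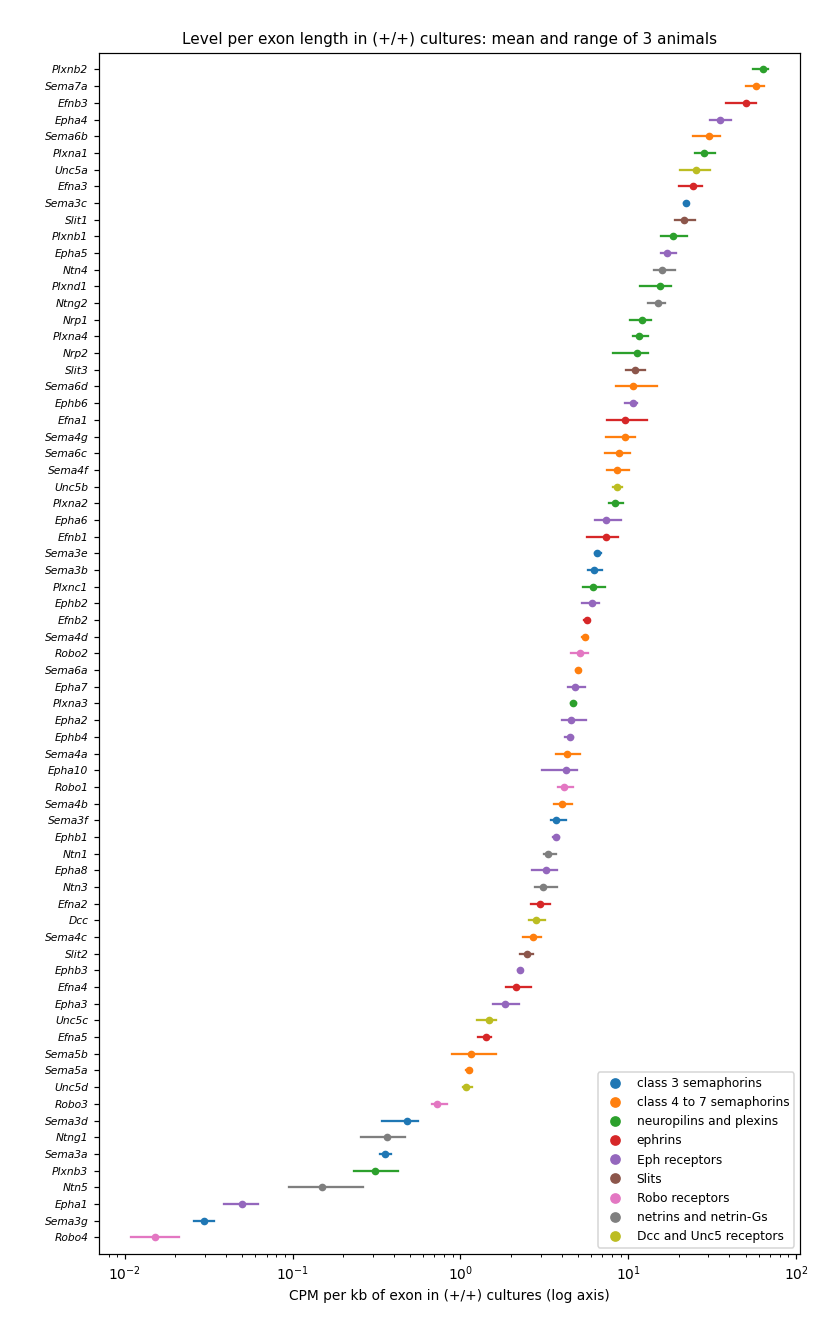
Level of each member in the (+/+) cultures in CPM per kb of exon on a log axis, as the mean (point) and the range (line) of 3 animals, coloured by family. Levels span from *Plxnb2* at 63.4 CPM per kb to the 4 members under the filter, *Ntn5*, *Epha1*, *Sema3g* and *Robo4*, at the foot.

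Class 3 semaphorins, the secreted ligands, had positive values in 5 of 6 tested members, with a median log2 fold change of 0.24. *Sema3c* was the most abundant of them and overlapped between the groups, with 157, 177 and 170.1 CPM in (+/−) animals and 154, 160.0 and 160.3 CPM in (+/+) animals. This gave a log2 fold change of 0.09 ± 0.09 (SE), with an adjusted p of 0.522 in edgeR. It lay between 0.04 and 0.14 when any 1 animal was left out. *Sema3b* was read at 44.5, 39.2 and 31.1 CPM in (+/−) and at 28.7, 27.3 and 33.4 CPM in (+/+) cultures, and 508 lay below 513, so that the groups overlapped. On the log2 scale *Sema3b* differed by 0.36 ± 0.15 (SE; edgeR adjusted p = 0.211). Without 505 it was 0.24. The other 4 tested members ran from −0.06 for *Sema3f* to 0.69 for *Sema3a*, the classical repellent of the family. *Sema3a* was read at 12.4, 5.36 and 6.22 CPM in (+/−) and at 4.61, 5.36 and 4.87 CPM in (+/+) animals. Its log2 fold change was 0.23 without 505, so that the sign held and the size rested on that animal.

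Among the membrane-bound semaphorins of classes 4 to 7, 9 of 13 had negative values, with a median of −0.26, or −0.13 without 505. *Sema4g*, a ligand of plexin B2, was read at 47.97, 56.6 and 50.6 CPM in (+/−) and at 95.5, 88.1 and 63.9 CPM in (+/+) cultures. A log2 fold change of −0.67 ± 0.15 (SE) resulted (edgeR adjusted p = 0.166). All 3 (+/−) animals lay below 513, the lowest (+/+) animal, and the log2 fold change was −0.62 without 505. *Sema4a*, another transmembrane class 4 ligand, was read at 7.76, 14.9 and 17.2 CPM against 22.2, 27.7 and 19.97 CPM. With edgeR the value was −0.81 ± 0.28 (SE) on the log2 scale (adjusted p = 0.181). Here 505 lay far below the other (+/−) animals, and the log2 fold change was −0.54 without it.

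*Sema6b* and *Sema6c*, transmembrane class 6 semaphorins, were lower in each (+/−) animal than in each (+/+) animal. *Sema6b*, a ligand of plexin A4, stood at 57.6, 91.5 and 87.9 CPM against 121, 139.7 and 97.02 CPM. Between genotypes *Sema6b* had a log2 fold change of −0.60 ± 0.20 (SE; edgeR adjusted p = 0.18). *Sema6c* stood at 22.8, 41.8 and 39.1 CPM against 51.5, 61.02 and 43.2 CPM. In edgeR *Sema6c* gave −0.59 ± 0.23 (SE) on the log2 scale, with an adjusted p of 0.202. For both genes 505 was the lowest animal, and without it *Sema6c* stood at −0.36. *Sema5b*, which carries thrombospondin repeats, differed the other way, at 12.96, 11.999 and 16.4 CPM in (+/−) and 6.84, 6.32 and 11.5 CPM in (+/+) animals. edgeR estimated a log2 fold change of 0.75 ± 0.24 (SE; adjusted p = 0.175). Its groups did not overlap, although 513 came close to 506. *Sema6d*, a ligand of plexin A1, was read at 189, 140.1 and 184 CPM against 91.5, 88.7 and 156 CPM, with 513 above 506, so that the groups overlapped. The log2 fold change was 0.61 ± 0.23 (SE; edgeR adjusted p = 0.198). *Sema7a*, the ligand of plexin C1 and the most abundant of these semaphorins per kb, was read at 125, 183 and 169 CPM against 194, 211 and 166 CPM. This gave a log2 fold change of −0.26 ± 0.16 (SE), with an adjusted p of 0.341 in edgeR. Its groups overlapped, and the value was −0.11 without 505. The other 6 members ran from −0.46 for *Sema4f* to 0.14 for *Sema4b*.

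The plexin A and plexin B receptors are given apart, and the difference between them was not tested. All 4 plexin A genes, which signal for class 3 and class 6 semaphorins, had negative values, with a median of −0.39, or −0.23 without 505. All 3 plexin B genes, receptors of class 4 semaphorins, had positive values, with a median of 0.30. None of these 7 signs turned when any 1 animal was left out. *Plxna1* was read at 136, 195 and 198 CPM in (+/−) and at 241, 298 and 228 CPM in (+/+) cultures. On the log2 scale *Plxna1* differed by −0.53 ± 0.17 (SE; edgeR adjusted p = 0.174). *Plxna3* was read at 22.4, 30.4 and 30.4 CPM against 35.7, 38.4 and 36.4 CPM. In both genes all (+/−) animals lay below all (+/+) animals, with 505 lowest. A log2 fold change of −0.41 ± 0.13 (SE) resulted (edgeR adjusted p = 0.171). *Plxna4* was read at 90.1, 127 and 158 CPM against 154, 184 and 149.5 CPM, and 508 lay above 510 and 513. With edgeR the value was −0.38 ± 0.20 (SE) on the log2 scale (adjusted p = 0.272). It was −0.19 without 505 and −0.59 without 508. *Plxna2*, at −0.31, also did not overlap between the groups.

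*Plxnb3* (ENSMUSG00000031385.14, chrX:73757090-73772514 on the plus strand of mm10) had the largest positive value of all members. It was scarce, at 5.64, 3.11 and 4.55 CPM in (+/−) and 1.499, 1.78 and 2.74 CPM in (+/+) animals. All (+/−) animals lay above all (+/+) animals. Between genotypes *Plxnb3* had a log2 fold change of 1.15 ± 0.30 (SE; edgeR adjusted p = 0.166). The value was between 0.94 and 1.42 when any 1 animal was left out. *Plxnb2*, far more abundant, was read at 613, 534 and 528 CPM against 527, 429.9 and 511 CPM. Its groups did not overlap, but 508 and 510 differed by less than 1 CPM. In edgeR *Plxnb2* gave 0.19 ± 0.12 (SE) on the log2 scale, with an adjusted p of 0.358. Without 505 it was 0.12, and without 511 it was 0.10. *Plxnb1*, the receptor of the class 4 semaphorin *Sema4d*, had a value of 0.30, with 513 above 2 of the (+/−) animals.

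The remaining semaphorin receptors had negative values. *Plxnc1*, the receptor of *Sema7a*, was read at 24.99, 35.97 and 37.7 CPM against 47.8, 60.7 and 44.8 CPM. edgeR estimated a log2 fold change of −0.64 ± 0.18 (SE; adjusted p = 0.167). *Plxnd1*, the receptor of *Sema3e*, was read at 80.1, 80.7 and 67.2 CPM against 119, 131 and 85.6 CPM. The log2 fold change was −0.56 ± 0.16 (SE; edgeR adjusted p = 0.167). Neither gene overlapped between the groups, and in *Plxnd1* the lowest animal was 508 and not 505. *Nrp2*, the coreceptor of *Sema3f*, was read at 73.4, 101 and 97.6 CPM against 148, 154 and 96.3 CPM. This gave a log2 fold change of −0.55 ± 0.20 (SE), with an adjusted p of 0.189 in edgeR. The (+/+) animal 513 lay below 506 and 508, so that the groups overlapped. *Nrp1*, the coreceptor of *Sema3a*, was read at 85.6, 106 and 106 CPM against 120.3, 134 and 101 CPM, with 513 again below 506 and 508. On the log2 scale *Nrp1* differed by −0.25 ± 0.13 (SE; edgeR adjusted p = 0.281). Leaving out 505 or 511 gave −0.16 in either case. Set beside their ligands, the log2 fold changes were −0.64 for *Plxnc1* and −0.26 for *Sema7a*, −0.56 for *Plxnd1* and 0.11 for *Sema3e*, and 0.30 for *Plxnb1* and −0.23 for *Sema4d*.

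**Figure D3:**
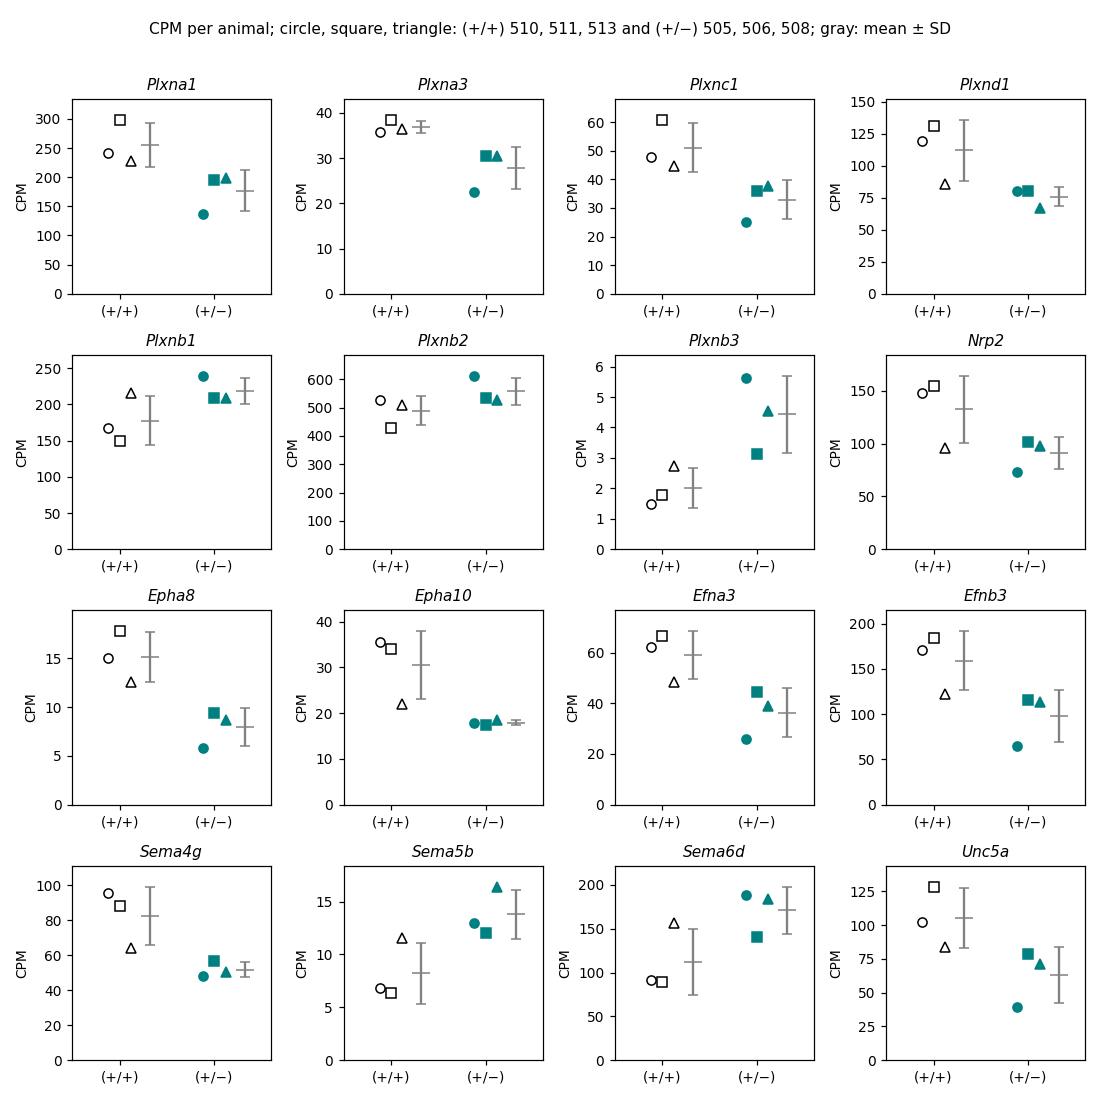
CPM per animal of 16 members, with (+/+) animals open and (+/−) animals filled, and the mean ± SD of 3 animals in gray; each axis starts at 0. *Plxna1*, *Plxna3*, *Plxnc1*, *Plxnd1*, *Epha8*, *Epha10*, *Efna3*, *Efnb3*, *Sema4g* and *Unc5a* do not overlap between genotypes on the lower side, *Plxnb2*, *Plxnb3* and *Sema5b* on the higher side, and *Plxnb1*, *Nrp2* and *Sema6d* overlap.

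Of the 8 ephrins, 3 had positive and 5 negative values, with a median of −0.17. *Efna3*, a GPI-anchored ligand of EphA receptors, was read at 25.7, 44.5 and 38.8 CPM in (+/−) and 62.1, 66.6 and 48.6 CPM in (+/+) animals. A log2 fold change of −0.70 ± 0.21 (SE) resulted (edgeR adjusted p = 0.168). *Efnb3*, a transmembrane ligand of the spinal and brain midline, was read at 65.1, 116 and 113 CPM against 171, 184 and 122 CPM. With edgeR the value was −0.70 ± 0.24 (SE) on the log2 scale (adjusted p = 0.183). Both genes had 505 as the lowest animal and did not overlap between the groups. Of the exon bases of *Efna3*, 14.1% lie under *Gm15998* on the opposite strand, and how strand was handled in counting is not stated. The other 6 ephrins ran from −0.30 for *Efna1* to 0.18 for *Efna4*, and all overlapped.

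The Eph receptors are given by class, and the difference between the classes was not tested. All 8 tested EphA receptors had negative values, with a median of −0.50, and in 5 of them every (+/−) animal lay below every (+/+) animal, as in 13.5% of all genes tested. The 5 EphB receptors had a median of 0.03, with 3 positive and 2 negative values, and all overlapped. The EphA median was −0.29 without 505 and −0.36 without 511. The EphB median lay between −0.04 and 0.06 in the fits without 1 animal.

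*Epha8* (ENSMUSG00000028661.8, chr4:136929419-136956816 on the minus strand of mm10) had the most negative value of all members. It was read at 5.77, 9.44 and 8.63 CPM in (+/−) and at 15.1, 17.8 and 12.6 CPM in (+/+) cultures, and 506, the highest (+/−) animal, lay below 513, the lowest (+/+) animal. Between genotypes *Epha8* had a log2 fold change of −0.93 ± 0.21 (SE; edgeR adjusted p = 0.166). Without 505 the value was −0.74. *Epha10*, whose kinase domain is held to be inactive, was read at 17.9, 17.5 and 18.5 CPM against 35.5, 34.1 and 22.1 CPM. In edgeR *Epha10* gave −0.77 ± 0.17 (SE) on the log2 scale, with an adjusted p of 0.166. Its (+/−) animals lay within about 1 CPM of each other, so 505 did not stand apart here, and the value was −0.77 without it. *Epha3*, a receptor of A-type ephrins, was read at 7.21, 11.8 and 12.9 CPM against 15.04, 19.4 and 13.5 CPM. edgeR estimated a log2 fold change of −0.59 ± 0.23 (SE; adjusted p = 0.204). Here 508 and 513 lay close together, and the value was −0.37 without 505. *Epha4*, which binds ephrins of both types and was the most abundant Eph receptor per kb, was read at 143, 239 and 239 CPM against 279, 327 and 246 CPM. The log2 fold change was −0.46 ± 0.21 (SE; edgeR adjusted p = 0.241). Its groups did not overlap, yet 506 and 508 lay within 7 CPM of 513, and the value was −0.25 without 505. The other 9 tested Eph receptors ran from −0.53 for *Epha6* to 0.23 for *Ephb4*.

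**Figure D4:**
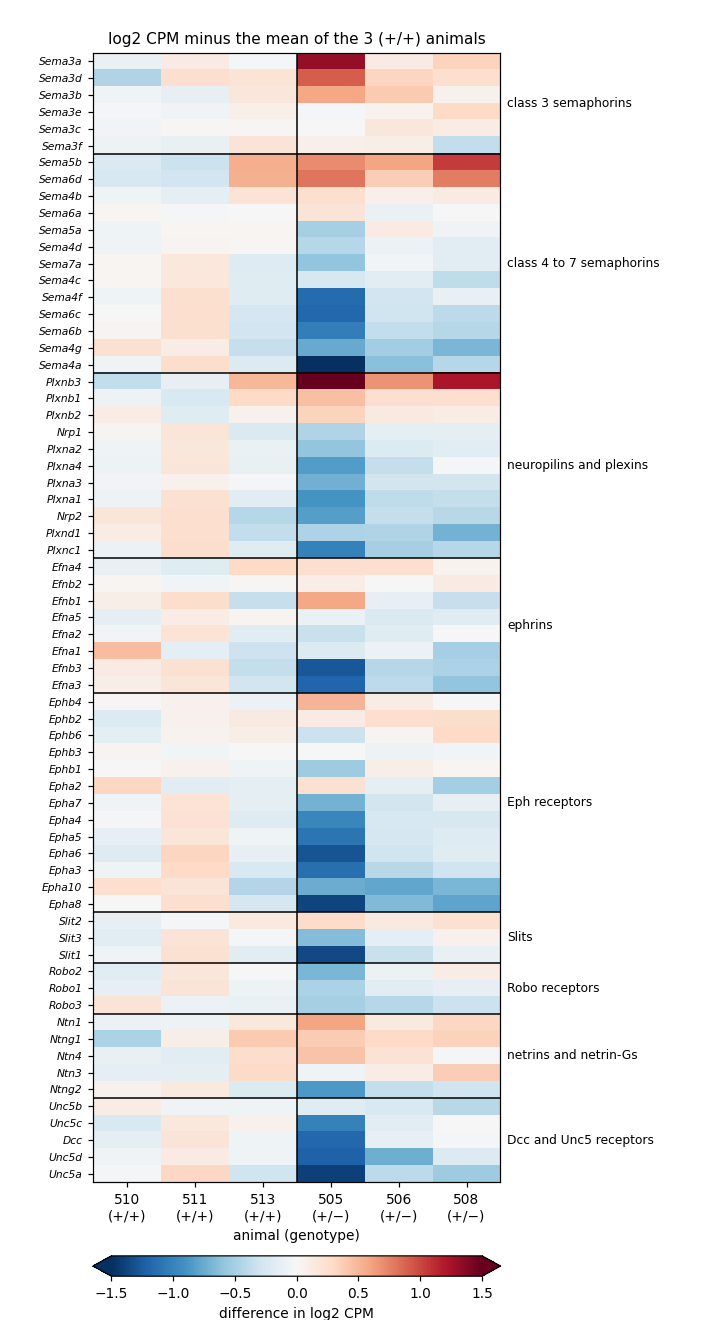
Deviation of each tested member from its (+/+) mean in log2 CPM, per animal, by family and ordered by log2 fold change, with the colour scale ending at ±1.5. Animal 505 holds the deepest blue in most families, with medians over all members of −0.46 for 505, −0.14 for 506 and −0.12 for 508. The 23 members whose (+/−) animals all lie below the (+/+) animals are blue in all 3 (+/−) animals, *Epha10*, *Plxnd1* and *Robo3* among them.

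Slits and Robo receptors, a repellent ligand and receptor pair of the midline, had medians of −0.21 and −0.25, the latter −0.15 without 505. *Slit1* was read at 49.1, 99.7 and 116 CPM in (+/−) and 120.0, 147 and 112 CPM in (+/+) animals, with 508 above 513. This gave a log2 fold change of −0.52 ± 0.29 (SE), with an adjusted p of 0.295 in edgeR. Without 505 it was −0.23. *Slit2* and *Slit3* had values of 0.21 and −0.21, and both overlapped. The median of the Slits rested on 505, as it was −0.04 without that animal.

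*Robo3*, a receptor known from axons that cross the midline, was read at 3.53, 3.69 and 3.96 CPM against 5.67, 4.67 and 4.64 CPM. On the log2 scale *Robo3* differed by −0.42 ± 0.15 (SE; edgeR adjusted p = 0.188). All (+/−) animals lay below all (+/+) animals and close to each other, but both libraries of an animal differed more for this gene than the animals of a genotype did. *Robo1* was read at 48.9, 60.8 and 62.2 CPM against 62.6, 77.5 and 64.6 CPM. Its groups did not overlap, with 508 just under 510. A log2 fold change of −0.25 ± 0.13 (SE) resulted (edgeR adjusted p = 0.265). It was −0.15 without 505 as well as without 511. *Robo2*, the most abundant Robo gene per kb, was read at 53.9, 81.2 and 93.5 CPM against 77.6, 97.4 and 85.99 CPM and overlapped. With edgeR the value was −0.19 ± 0.19 (SE) on the log2 scale (adjusted p = 0.541). Without 505 this value turned to 0.01, and it was −0.37 without 508 and −0.10 without 511.

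The netrin ligands and their receptors had values of opposite sign, a difference that was not tested. All 3 tested netrins had positive values. *Ntn1*, the founding attractant, was read at 31.4, 23.2 and 25.8 CPM in (+/−) and 19.7, 19.8 and 23.3 CPM in (+/+) animals, with 506 just below 513. Between genotypes *Ntn1* had a log2 fold change of 0.36 ± 0.13 (SE; edgeR adjusted p = 0.195). Without 505 it was 0.23. *Ntn4*, a laminin-like netrin and the most abundant, was read at 79.4, 68.4 and 58.2 CPM against 54.7, 52.9 and 70.8 CPM and overlapped. In edgeR *Ntn4* gave 0.21 ± 0.15 (SE) on the log2 scale, with an adjusted p of 0.404. The value ran from 0.09 without 505 to 0.34 without 513. *Ntn3* had a value of 0.14. Of the netrin-Gs, which are GPI-anchored and bind other partners than Dcc, *Ntng2* was read at 33.1, 46.9 and 48.998 CPM against 62.8, 66.3 and 51.97 CPM. edgeR estimated a log2 fold change of −0.49 ± 0.16 (SE; adjusted p = 0.179). Its groups did not overlap, and 14.0% of its exon bases are shared with *6530402F18Rik* on the same strand. *Ntng1* had a value of 0.30 and overlapped.

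All 5 Dcc and Unc5 receptors had negative values, with a median of −0.37, and the sign of the median held without any 1 animal. *Dcc* was read at 16.3, 33.8 and 36.1 CPM against 33.7, 42.2 and 35.3 CPM. The log2 fold change was −0.37 ± 0.27 (SE; edgeR adjusted p = 0.406). Only 505 lay below the (+/+) range, and the value was −0.08 without it, against −0.57 without 508. *Unc5a* was read at 39.2, 78.7 and 71.5 CPM against 103, 129 and 84.2 CPM. This gave a log2 fold change of −0.74 ± 0.26 (SE), with an adjusted p of 0.188 in edgeR. Without 505 it was −0.49. *Unc5b*, also known from blood vessels, was read at 46.8, 45.7 and 39.8 CPM against 57.6, 51.6 and 51.02 CPM. On the log2 scale *Unc5b* differed by −0.28 ± 0.10 (SE; edgeR adjusted p = 0.187). In *Unc5b* the lowest animal was 508, in contrast to *Unc5a*, where it was 505. *Unc5d*, known from upper-layer neurons of the cortex, was read at 4.32, 6.01 and 8.65 CPM against 9.63, 10.9 and 9.53 CPM. A log2 fold change of −0.66 ± 0.24 (SE) resulted (edgeR adjusted p = 0.188). None of these 3 overlapped between the groups. *Unc5c*, at −0.33, overlapped.

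Levels of cell type markers were read in the same animals. The 12 pan-neuronal markers all had negative values, with a median of −0.46, and their summed level was 2545 to 4807 CPM in (+/−) and 4898 to 5664 CPM in (+/+) animals. The lowest sum was that of 505. All 7 excitatory markers were negative as well (median −0.50), with sums of 539.7 to 1103 CPM against 1087 to 1461 CPM. Of the 8 inhibitory markers 7 were negative (median −0.63), with sums of 129 to 268 CPM against 279 to 327 CPM. None of these neuronal markers was at 0 in any animal. Relative to the (+/+) mean of log2 CPM, the median over pan-neuronal markers was −1.11 in 505, −0.30 in 506 and −0.13 in 508. The same measure over EphA receptors was −1.04, −0.29 and −0.27, and over Dcc and Unc5 receptors −1.17, −0.22 and −0.21. Class 4 to 7 semaphorins stood at −0.50, −0.10 and −0.16, and neuropilins and plexins at −0.59, −0.27 and −0.16. Slits stood at −0.65, −0.14 and 0.07, and Robo receptors at −0.49, −0.16 and −0.13. Not all families were lowest in 505: the ephrins stood at −0.15, −0.15 and −0.27, and class 3 semaphorins (0.33, 0.14 and 0.18) and netrins with netrin-Gs (0.38, 0.15 and 0.31) were positive in all 3 animals. The part of the neuronal share of the cultures in the members' values was not tested, and in bulk RNA fewer neurons and less RNA per neuron cannot be told apart.

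Markers of other cells ran the other way. All 9 microglial markers were positive (median 1.01), with sums of 122 to 231 CPM in (+/−) against 89.1 to 116 CPM in (+/+) animals. So were all 8 ependymal markers (median 0.86; 1043 to 1217 against 577 to 790.0 CPM) and 8 of the 9 choroid plexus markers (median 1.43; 487 to 1809.7 against 137 to 348 CPM). All 9 meningeal fibroblast markers were positive (median 0.92; 510.2 to 1943 against 299 to 1012 CPM). This rested on 505: the median deviation from the (+/+) mean was 2.26 in 505, 0.28 in 506 and −0.04 in 508. Without 505 the median log2 fold change of the meningeal list was −0.07. Of the 8 astrocyte markers 6 were positive (median 0.24; 11526 to 12674 against 8309 to 12678 CPM). For the oligodendrocyte lineage 5 of the 7 tested markers were positive (median 0.52; 275 to 326 against 188 to 271 CPM), and for radial glia and progenitors 7 of 8 (median 0.42; 5560 to 6395 against 3734 to 5570 CPM), with *Eomes* at 0 in an animal. For endothelium 5 of 6 were positive (median 0.67; 26.3 to 60.8 against 16.3 to 25.0 CPM), with the defining genes *Tie1* and *Cldn5* at 0 in an animal, and for mural cells 6 of 7 (median 0.13; 379 to 579.9 against 348 to 424 CPM). The mural median turned to −0.06 without 505. Apart from the meningeal list, the other medians of this paragraph remained positive without 505, from 0.18 for astrocytes to 0.95 for choroid plexus. Among (+/+) animals, 513 had the highest median deviation for the astrocyte, oligodendrocyte, ependymal, mural and radial glia lists. It had the lowest for the choroid plexus (−0.69), meningeal fibroblast (−1.16) and endothelial (−0.27) lists. The positive members differed in this: 513 lay highest of the (+/+) animals for *Sema6d*, *Sema5b*, *Plxnb1* and *Plxnb3*. For *Plxnb2* the highest was 510, for *Sema3a* and *Sema3d* it was 511, and for *Efnb1* and *Ephb4* 513 lay lowest. The part of glial and other non-neuronal cells in the positive members was not tested.

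**Figure D5:**
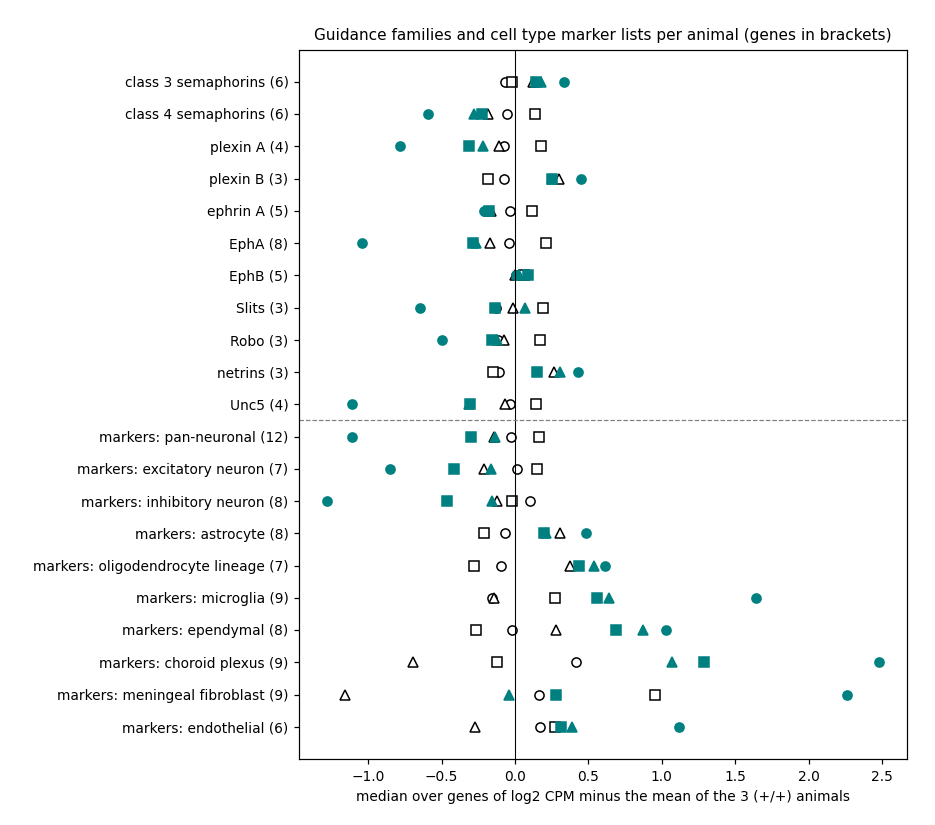
Median over genes of log2 CPM minus the mean of the 3 (+/+) animals, for guidance families (above the dashed line) and cell type marker lists (below it), with (+/+) animals open, (+/−) animals filled, and circle, square and triangle for 510, 511, 513 and for 505, 506, 508. In 505 the medians were −1.04 for EphA, −1.11 for Unc5, −0.65 for Slits and −0.49 for Robo receptors. Its pan-neuronal median was −1.11 and its choroid plexus median 2.48.

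Related genes outside the rule were compared as lists, and edgeR called none, as it called no gene. DESeq2 on the 6 animals called 2 higher (beside 7.54% of all genes tested) and 5 lower (beside 4.3%) of the 69 tested. Of 7 further genes listed with netrin receptors and RGM proteins, 6 had negative values (median −0.27). *Draxin*, a netrin antagonist, stood at −0.74 and *Rgmb* at −0.32, while *Bmpr1b* was positive at 0.56. Of 6 netrin-G ligands and FLRT proteins, 5 were negative (median −0.27), with *Flrt3* at −0.75 and *Flrt1* at −0.45. Of 10 L1 family members and contactins, which are adhesion molecules of axons, 9 were negative (median −0.29), with *Cntn3* at −0.56. All 5 collapsin response mediators, which act downstream of class 3 semaphorins, were negative (median −0.42), with *Crmp1* at −0.62 and *Dpysl2* at −0.42. Of the 41 cytoplasmic effectors, 16 had positive and 25 negative values, with a median of −0.05. In 11 of them every (+/−) animal lay below every (+/+) animal, beside 13.5% of all genes tested. In 3 every (+/−) animal lay above, beside 15.5% of all genes tested. Among these, *Fes*, a tyrosine kinase downstream of plexins, stood at 1.69 ± 0.39 (SE; edgeR adjusted p = 0.166). It was scarce, at 3.08, 1.28 and 1.598 CPM in (+/−) and 0.442, 0.712 and 0.702 CPM in (+/+) animals. The actin binding protein gene *Ablim1* stood at 0.42 and *Rnd1*, a GTPase that binds plexins, at −0.60.

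The study names AAAGTT as the core motif of MYT1L, so the promoters of the members were searched for it on both strands. RefSeq windows of 300 bases, from 250 before to 50 after a gene's start on GRCm38.p6, were at hand for 61 members. The motif was in a window of 10 members (16.4%), and in one of 15.9% of all genes with a window. Among tested genes it was in 9 of 57 members (15.8%) and in 13.2% of all. The 10 were *Efna4*, *Epha1*, *Epha6*, *Ephb1*, *Ephb4*, *Nrp2*, *Ntng2*, *Sema3a*, *Sema3d* and *Sema4c*. The 9 of these that were tested had a median log2 fold change of −0.11, with 4 positive values, and the 48 tested members with a window but no match had a median of −0.24, with 16 positive values. A match is a run of letters and not a bound site.

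Shown here are the upstream parts of 5 windows, each of 200 bases on the gene's strand, ending 50 bases before the annotated start, with the motif or its reverse complement AACTTT in capitals. *Nrp2*, *Ntng2* and *Sema3a* are the motif holders whose values in every animal are given above. *Plxnb3* and *Epha8* are the members with the largest positive and negative values, and their windows hold no match.
Nrp2, chr1:62703067-62703266, plus strand: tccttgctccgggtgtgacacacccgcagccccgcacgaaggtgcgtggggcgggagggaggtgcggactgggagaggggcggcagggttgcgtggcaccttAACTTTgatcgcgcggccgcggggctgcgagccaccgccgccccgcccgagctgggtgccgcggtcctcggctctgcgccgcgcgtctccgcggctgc
Ntng2, chr2:29248150-29248349, minus strand: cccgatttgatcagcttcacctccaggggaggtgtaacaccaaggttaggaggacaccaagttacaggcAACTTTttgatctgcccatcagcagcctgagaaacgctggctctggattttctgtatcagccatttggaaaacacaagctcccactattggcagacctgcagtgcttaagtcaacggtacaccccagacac
Sema3a, chr5:13396534-13396733, plus strand: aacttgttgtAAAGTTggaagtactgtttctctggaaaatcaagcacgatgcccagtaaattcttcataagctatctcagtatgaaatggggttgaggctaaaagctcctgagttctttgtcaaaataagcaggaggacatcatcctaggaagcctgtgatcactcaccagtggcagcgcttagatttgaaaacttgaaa
Plxnb3, chrX:73756853-73757052, plus strand: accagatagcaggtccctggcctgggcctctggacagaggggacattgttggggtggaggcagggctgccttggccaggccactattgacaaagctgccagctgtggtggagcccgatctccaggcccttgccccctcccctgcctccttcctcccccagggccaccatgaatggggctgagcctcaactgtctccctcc
Epha8, chr4:136956867-136957066, minus strand: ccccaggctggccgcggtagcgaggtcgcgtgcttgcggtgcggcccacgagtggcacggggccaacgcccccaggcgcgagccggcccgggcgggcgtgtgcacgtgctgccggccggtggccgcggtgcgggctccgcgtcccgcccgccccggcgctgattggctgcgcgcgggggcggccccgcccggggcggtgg
The matches begin 148 bases before the start in *Nrp2*, 181 in *Ntng2* and 240 in *Sema3a*. The windows of *Ntng2* and *Sema3a* are at starts inside the counted genes. Counted *Ntng2* begins upstream, at base 29253005 of chr2, and *Sema3a* at base 13125414 of chr5. *Nrp2* and *Ntng2*, with log2 fold changes of −0.55 and −0.49, hold the reverse complement, and *Sema3a*, at 0.69, the forward motif. *Plxnb3* and *Epha8*, the members at 1.15 and −0.93, have no match in their windows, which says nothing about binding elsewhere.

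Error between libraries was small beside that between animals. For the median member, the SD of log2 CPM between both libraries of an animal was 0.06, and between animals of a genotype it was 0.25. In 5 tested members the libraries differed more than the animals: *Efna2*, *Efna5*, *Efnb2*, *Ephb3* and *Robo3*. Exon bases shared with another gene exceeded 20% in 1 member, *Ntn5*, which was not tested, and were 10.7% in *Plxna1*, on the strand opposite to *Gm26811*. *Plxna3*, *Plxnb3* and *Efnb1* are on the X chromosome. Without 511, the animal with *Xist*, their log2 fold changes were −0.38, 1.07 and 0.21, against −0.41, 1.15 and 0.07 with all animals.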

How the data were processed

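RNA was measured in 12 libraries of 6 animals, 3 per genotype. Unnormalised gene counts for each library, as deposited by the authors, came from strand-specific (dUTP) paired-end reads that the labels and methods say were mapped to mm10 with STAR. The counting tool, its strand setting and the annotation are not given in the sources used here, but all 71 members had the coordinates of GENCODE M21. The deposited normalised counts and the table of the authors' own fold changes and p-values were not used.

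The libraries were summed within each animal. edgeR 4.0.16 in R 4.3.3 was run on all genes with filterByExpr, TMM scaling, the quasi-likelihood test and Benjamini-Hochberg adjustment, calling at 0.1, and was tested on simulated data. Alternatives used DESeq2 1.42.0 and limma 3.58.1. For log2 deviations 0.01 CPM was added. CPM per kb used the summed exon length. Members, lists and tests were chosen with earlier results of these data known. Values in every animal are given for members with an unadjusted p under 0.05, for those whose groups did not overlap with a log2 fold change beyond 0.5 in size, for the most abundant of each family, and for *Dcc*, *Robo1*, *Nrp1* and *Plxna4*; those of *Sema3a* were added after its values were seen. Library totals of 20181477 to 26594444 counts give the depth. The p-values of the main fit set the difference between genotypes against the spread between animals.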

Additional observations from a re-analysis of the deposited data

How the results depend on the processing

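Called members stayed at 0 higher and 0 lower with DESeq2 size factors or upper-quartile scaling in edgeR, a mean count of 10 or more, limma voom, genetic sex as a covariate in edgeR, library 1 or library 2 alone, and an adjusted p under 0.05. Without the low-count filter edgeR called 2 higher and 12 lower. DESeq2 called 3 higher and 16 lower, or 0 and 1 once genetic sex entered as a covariate. The DESeq2 fit with that covariate was an alternative added after the data were seen. In either tool the covariate sets only the (+/+) animal 511 apart, so it is no check separate from leaving out 511. All 14 genes called without the filter were also called by DESeq2. Leaving out 1 animal gave 0 to 4 higher and 0 to 11 lower, all of them from the fit without the (+/+) animal 513. The cause of these differences was not tested. For every fit with calls, the share of all genes called is given in the Results above. Treating 12 libraries as samples gave 12 higher and 32 lower, and adding the library number as a replicate block gave 11 and 31; both fits count each animal more than once. Deviations of libraries with the same number in different animals correlated at −0.149 on average, as did those with different numbers, so the number does not pair the animals. Without 1 animal the log2 fold change of *Robo2* ran from −0.37 to 0.0061, and it turned sign without 505. The sign of every family median held in all these fits.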
